A study of Rattus norvegicus with 2 samples.

Results

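The genes of the mitochondrial respiratory chain and ATP synthase were followed in single cells of rat dorsal root ganglia (DRGs), the ganglia that hold the sensory neurons with their satellite glia, Schwann cells, vessels and connective tissue. The genes were chosen by symbol alone, as those beginning with Ndufa, Ndufb, Ndufc, Ndufs, Ndufv, Uqcr, Cox4, Cox5, Cox6, Cox7, Cox8, Atp5 or Mt-. The rule took 103 of the 30017 symbols in the counts, 90 of them encoded in the nucleus and 13 in mitochondrial DNA. The nuclear genes were 45 of complex I (7 core subunits, 30 accessory subunits and 8 assembly factors), 8 of complex III, 21 of complex IV and 16 of complex V. Ndufa4 and Ndufa4l2 were counted with complex IV, of which NDUFA4 is now known to be a subunit.

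Each condition was measured in 1 library. The DPN library held cells of bilateral lumbar ganglia (levels 3 to 6) pooled from 5 male Sprague-Dawley rats with diabetic peripheral neuropathy, taken 8 weeks after an intraperitoneal injection of streptozotocin at 65 mg/kg, which destroys the insulin-producing beta cells. The Control library pooled the same ganglia of 5 rats injected with citrate buffer, and the rats of both groups were 8 weeks old at the start. The ganglia were digested with enzymes before capture, so that levels describe dissociated cells, and a pool of rats gives no spread between animals. No test between conditions was possible. Intervals are exact 95% intervals that cover counting error only, and a ratio is the level in the DPN library divided by that in the Control library.

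The respiratory chain passes electrons from NADH and succinate through complexes I to IV to oxygen, and pumps protons across the inner mitochondrial membrane. Complex V, the ATP synthase, uses the proton gradient to make ATP. Mitochondrial DNA encodes core subunits of complexes I, III, IV and V, all other subunits come from nuclear genes, and complex II is nuclear alone. In the DRG, neurons have large energy needs, and the glia around them depend more on glycolysis.

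In all, 121101966 unique molecular identifiers (UMIs, each a captured molecule) came with 11011 barcodes of the Control library and 115409375 with 13168 barcodes of the DPN library, of which 10722 and 12380 had at least 1000 UMIs. The libraries shared 38 barcodes. Cells with at least 1000 UMIs were gated per 10000 UMIs by Fabp7 and Tyrp1 (satellite glia, at least 12), Prx, Mag and Cldn19 (myelinating Schwann cells, at least 5), Cldn5, Flt1 and Cdh5 (endothelium, at least 10) or Lum (fibroblasts, at least 5), with no limit on mitochondrial UMIs. The gates took 4483 Control and 3532 DPN cells as satellite glia, 394 and 571 as myelinating Schwann cells, 830 and 1270 as endothelium, and 214 and 337 as fibroblasts. Median UMIs per cell, in the Control and then the DPN library, were 13517 and 10788 in satellite glia, 4623 and 3801 in myelinating cells, 9840 and 8329 in endothelium, and 6644 and 6203 in fibroblasts. Cells in more than 1 of the 4 gates numbered 46 and 61.

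Markers outside the gates were checked against the names. Ncmap, a membrane protein of non-compact myelin, was at 65.6 and 50.4 CPM (counts per 1000000 UMIs) in myelinating cells of the Control and DPN libraries, against 0.213 and 0.0788 in satellite glia. Emcn, an endothelial sialomucin, was at 951 and 788 CPM in endothelium, against 4.99 and 5.91 in satellite glia. Dcn, a proteoglycan of fibroblasts, was at 31065 and 22872 CPM in fibroblasts, against 24.4 and 95.9 in endothelium. The markers of satellite glia were less clear. Apoe, a lipid carrier, was at 83563 and 69953 CPM in satellite glia, against 27074 and 19189 in fibroblasts, and the glutamate transporter Slc1a3 at 66.7 and 101 CPM, against 61.8 and 72.0 in fibroblasts. Glul, glutamine synthetase, was at 142 and 197 CPM in satellite glia and higher in endothelium, at 367 and 331 CPM, and the potassium channel Kcnj10, a defining marker, was only at 3.97 and 5.78 CPM. Markers of other cells moved with the condition. The summed level of 6 neuron markers, Control before DPN, was 166 and 305 CPM in satellite glia, 250.3 and 661 in myelinating cells, 168 and 290.2 in endothelium, and 233 and 412 in fibroblasts. The sum of 3 red blood cell genes was 7.2 and 422 CPM in myelinating cells, 33.6 and 6.12 in satellite glia, 447 and 478 in endothelium, and 1.97 and 7.32 in fibroblasts. The sum of 2 neutrophil genes was 8.51 and 1.29 CPM in satellite glia and at most 2.49 CPM in the other types. The part of these cells in the results was not tested, beyond the values without cells in several gates.

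The upstream sequence of some members is shown first, since nuclear respiratory genes are known for sharing sites of NRF1, of ETS factors such as GABPA, and of YY1. Promoters of 300 bases were taken from RefSeq (assembly GRCr8), from 250 bases before to 50 after the annotated start, and 77 of the 90 nuclear genes matched by symbol. The windows below hold the 120 bases before the start, written 5′ to 3′ along the gene, with matches on either strand to GCGCATGCG (NRF1 core), CCGGAAG (ETS core), AAGATGGCG (YY1 core) or ACGTG (hypoxia response core) in capitals. Uqcrq, Cox8a, Ndufa11 and Atp5f1e were lower in the DPN library in all 4 types, Ndufs1 and Ndufaf1 had the highest ratios in satellite glia, and Ndufa4l2 had the lowest ratio in endothelium. These genes were picked for display after their values and matches were seen.
Uqcrq, chr10:38089979-38090098 (- strand): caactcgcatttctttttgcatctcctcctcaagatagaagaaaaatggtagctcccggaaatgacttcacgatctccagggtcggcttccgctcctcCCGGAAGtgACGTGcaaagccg
Cox8a, chr1:213833624-213833743 (- strand): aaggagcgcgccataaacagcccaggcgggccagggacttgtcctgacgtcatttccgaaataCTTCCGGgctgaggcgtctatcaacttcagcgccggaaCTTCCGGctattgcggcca
Ndufa11, chr9:1637494-1637613 (+ strand): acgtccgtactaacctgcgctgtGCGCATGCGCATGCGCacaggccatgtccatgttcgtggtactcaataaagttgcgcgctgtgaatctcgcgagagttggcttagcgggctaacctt
Atp5f1e, chr3:183680173-183680292 (- strand): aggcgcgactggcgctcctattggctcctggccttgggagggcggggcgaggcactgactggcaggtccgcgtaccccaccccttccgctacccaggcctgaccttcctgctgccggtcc
Ndufs1, chr9:72073606-72073725 (- strand): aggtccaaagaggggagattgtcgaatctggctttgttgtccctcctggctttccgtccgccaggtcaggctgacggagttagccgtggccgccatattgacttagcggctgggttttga
Ndufaf1, chr3:127104021-127104140 (- strand): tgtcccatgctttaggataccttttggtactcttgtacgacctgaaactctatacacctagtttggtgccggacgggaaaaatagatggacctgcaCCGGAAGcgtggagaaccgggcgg
Ndufa4l2, chr7:65242049-65242168 (+ strand): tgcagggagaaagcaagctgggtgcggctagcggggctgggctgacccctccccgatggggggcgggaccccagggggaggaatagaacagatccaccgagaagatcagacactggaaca

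The Uqcrq window holds an ETS core and, beside it, a hypoxia response core, the Cox8a window holds ETS cores on the other strand, and the Ndufa11 window holds overlapping NRF1 cores. The windows of Atp5f1e, Ndufs1 and Ndufa4l2 hold none of these letters, and that of Ndufaf1 an ETS core. Over the whole 300 bases the NRF1 core was present in 10.4% of the 77 members against 3.55% of 7860 promoters of genes tested in any of the 4 types, and the YY1 core in 14.3% against 4.08%. The ETS core was present in 24.7% of members against 18.5%, and the hypoxia response core in 29.9% against 26.4%. Over all 27457 promoters the shares were 1.66% (NRF1), 1.93% (YY1), 9.22% (ETS) and 19.7% (hypoxia response). Among 14 matched members that were lower in all 4 types, 1 held the NRF1 core, 2 the YY1 core, 4 the ETS core and 3 the hypoxia response core. A match is a run of letters and not a shown site.

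The summed level of the nuclear genes was lower in the DPN library in all 4 types, and that of the Mt- genes was not. In satellite glia the nuclear sum was 17089 CPM in Control and 13318 CPM in DPN cells (ratio 0.779, 0.777 to 0.782). In myelinating Schwann cells the nuclear sum was 19785 and 14634 CPM (ratio 0.740, 0.730 to 0.749). In endothelium it was 16117 and 12460.0 CPM (ratio 0.773, 0.768 to 0.778). Fibroblasts moved least, with 16406 and 14132 CPM (ratio 0.861, 0.847 to 0.876).

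The Mt- sum took 14.7% of UMIs of Control and 16.5% of DPN satellite glia (ratio 1.12, 1.12 to 1.12). In myelinating cells it took 14.4% and 15.8% (ratio 1.10, 1.09 to 1.10), and in fibroblasts 5.61% and 6.84% (ratio 1.22, 1.21 to 1.23). In endothelium it took 8.86% and 9.01% (ratio 1.02, 1.01 to 1.02), and this direction turned to 0.984 when ratios were scaled to the median gene. The Mt- UMIs counted for each nuclear respiratory UMI were therefore higher in the DPN library in each type, from 8.63 to 12.4 in satellite glia, 7.28 to 10.8 in myelinating cells, 5.50 to 7.23 in endothelium and 3.42 to 4.84 in fibroblasts, a ratio of 1.44, 1.48, 1.32 and 1.41. This quotient does not depend on the library total. The other 24 symbols of the mitochondrial sequence, outside the rule, had ratios of 1.27, 1.5, 0.973 and 1.17 in the same order.

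Gates for 4 further cell types showed the same direction, and their members are set beside abundant genes further below. The nuclear sum was 20721 and 17652 CPM in pericytes (ratio 0.852), 28811 and 23384 in smooth muscle (0.812), 14941 and 12458 in macrophages (0.834), and 37707 and 32139 in neurons (0.852). The neuron gate held 148 Control and 338 DPN cells, with median UMIs of 66870 and 21219. Its cells thus differed in depth between the libraries, and the part of depth in the neuron ratios was not tested. Pericytes numbered 316 and 542 (median UMIs 4736 and 3174), smooth muscle 293 and 354 (5252 and 4382), and macrophages 172 and 243 (4862 and 4309). Neurons had the highest nuclear level of the 8 gates in both libraries. Their Mt- sum was 140336 and 151451 CPM, below that of satellite glia in each library, so that neurons held 3.72 and 4.71 Mt- UMIs per nuclear respiratory UMI.

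**Figure D1:**
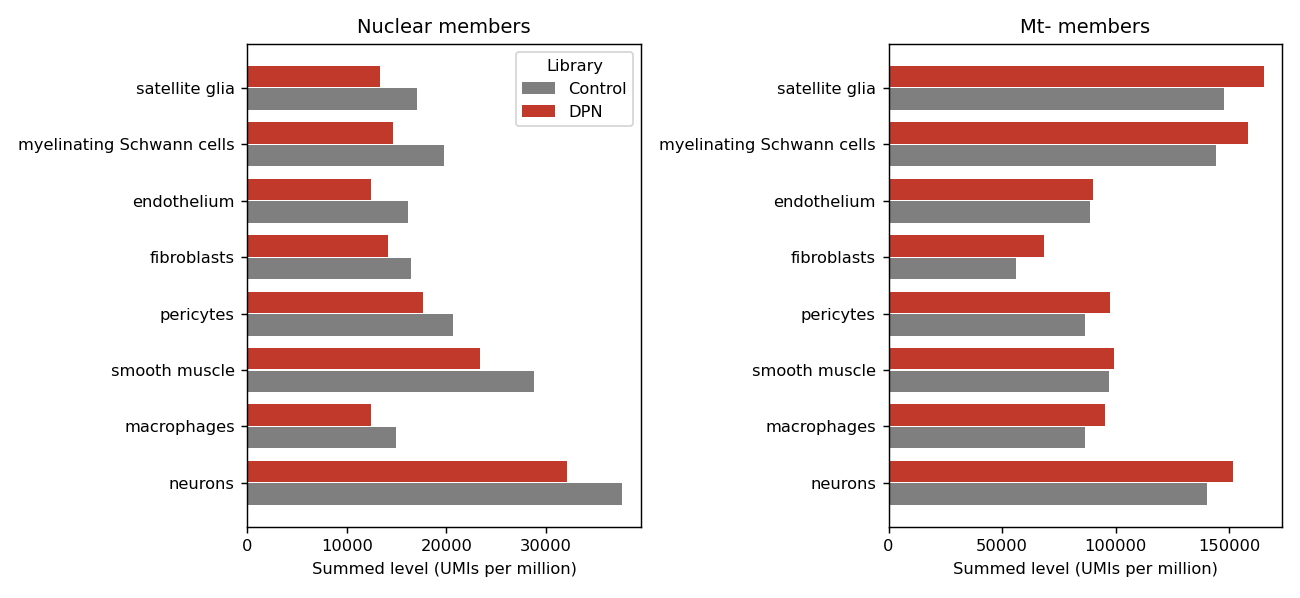
Summed level of the 90 nuclear genes (left) and the 13 Mt- genes (right), in CPM, in 8 gated cell types of the Control (grey bars) and DPN (red bars) libraries. The nuclear sum is lower in the DPN library in all 8 gates, from 17089 to 13318 in satellite glia, while the Mt- sum is higher in each, by least in endothelium, where the ratio of 1.02 turned to 0.984 under median-ratio scaling.

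Most of the passing nuclear members were called lower in satellite glia, myelinating cells and endothelium, and fewer in fibroblasts. A member was called higher from a ratio of 1.2 and lower from 0.833, provided that the interval left out 1, among members with at least 200 UMIs in a type. In satellite glia 53 of the 80 that reached it were lower and 5 higher, where 15.8% of all 9741 genes so tested were lower and 40.6% higher. In myelinating cells 68 passed, of which 57 were lower and 0 higher, against 28.3% and 29.3% of 3117 genes. In endothelium 78 passed, of which 55 were lower and 3 higher, against 20.8% and 32.1% of 7655 genes. In fibroblasts 66 passed, of which 21 were lower and 0 higher, against 17.7% and 35.2% of 2483 genes. No replicate was there to test these counts, and with a minimum of 20 UMIs 2 members were higher in myelinating cells and 1 in fibroblasts.

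Few ratios were large. At the stricter fold of 1.5 (a ratio of at most 0.667 when lower), 4 members were lower and 2 higher in satellite glia, against 2.15% and 22.6% of genes, and 15 lower and 0 higher in myelinating cells, against 5.39% and 15.3%. In endothelium 4 were lower and 2 higher, against 4.09% and 16.7%, and in fibroblasts 0 were called either way, against 3.54% and 22.5%. The median log2 ratio of the nuclear members was -0.33 in satellite glia, -0.41 in myelinating cells, -0.34 in endothelium and -0.19 in fibroblasts, where that of all genes tested was 0.14, -0.02, 0.05 and 0.09.

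Respiratory genes are abundant and short, and both properties moved with the ratio over all genes. Among genes at or above the median level of the nuclear members, the median log2 ratio was -0.20 in satellite glia, -0.25 in myelinating cells, -0.07 in endothelium and -0.11 in fibroblasts, below that of all genes and above that of the members. Of these abundant genes 41.7%, 47.7%, 25.7% and 30.8% were called lower in the same order of types, and of the passing nuclear members 66.2%, 83.8%, 70.5% and 31.8%. This set of abundant genes includes the members at or above that level and Mt- genes. The members' values cover all that passed, also those below that level, so members and set are not matched for level. In fibroblasts the members' share was near that of the set. In neurons it was 31.2% against 27.9%, with a median log2 ratio of -0.16 in members and set alike, and in macrophages 31.2% against 29.7%. In pericytes it was 42.4% against 32.3% and in smooth muscle 59.7% against 25.2%. By the span of the gene in RefSeq (assembly GRCr8; the sources used here name no build for the counts), the other nuclear genes of satellite glia had a median ratio of 0.907 under 5000 bases and of 1.27 at 20000 bases and over. The members of satellite glia had 0.792 and 0.846 in the same classes, which held 25 and 10 of them. In endothelium the other genes under 5000 bases had a median ratio of 0.857 and the members 0.791, and in myelinating cells 0.814 and 0.732. In fibroblasts these values were 0.905 and 0.844. Members were thus below other genes of like span in each of these types. The span classes were not matched for level, and how much of the members' distance from all genes went with span was not tested. All passing members and 95.4% to 96.8% of the other nuclear genes had a span. Why span moved with the ratio was not tested.

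Of the 65 nuclear members that passed the minimum in all 4 types, 17 were lower in all 4, 28 in 3, 9 in 2, 6 in 1 and 5 in none, and 55 had a ratio under 1 in every type. Lower in all 4 were therefore 26.2% of these members, against 8.57% of the 2065 genes that passed in all 4 types and 14.3% of the 615 of them at or above the members' median level. Under 1 in every type were 84.6% of the members, against 34.5% and 44.7%. The 65 members include those below their median level, so they are not matched for level with the 615 genes. The 17 were Atp5f1e and Atp5mf of complex V, Cox6c, Cox7a2l2, Cox7b, Cox8a and Ndufa4 of complex IV, Uqcr10, Uqcr11, Uqcrb and Uqcrq of complex III, and Ndufa2, Ndufa7, Ndufa11, Ndufa13, Ndufc2 and Ndufs5 of complex I. The 5 that were lower in none were Atp5f1a, Atp5f1b and Atp5mc3 of complex V, and Ndufa8 and Ndufv3 of complex I.

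**Figure D2:**
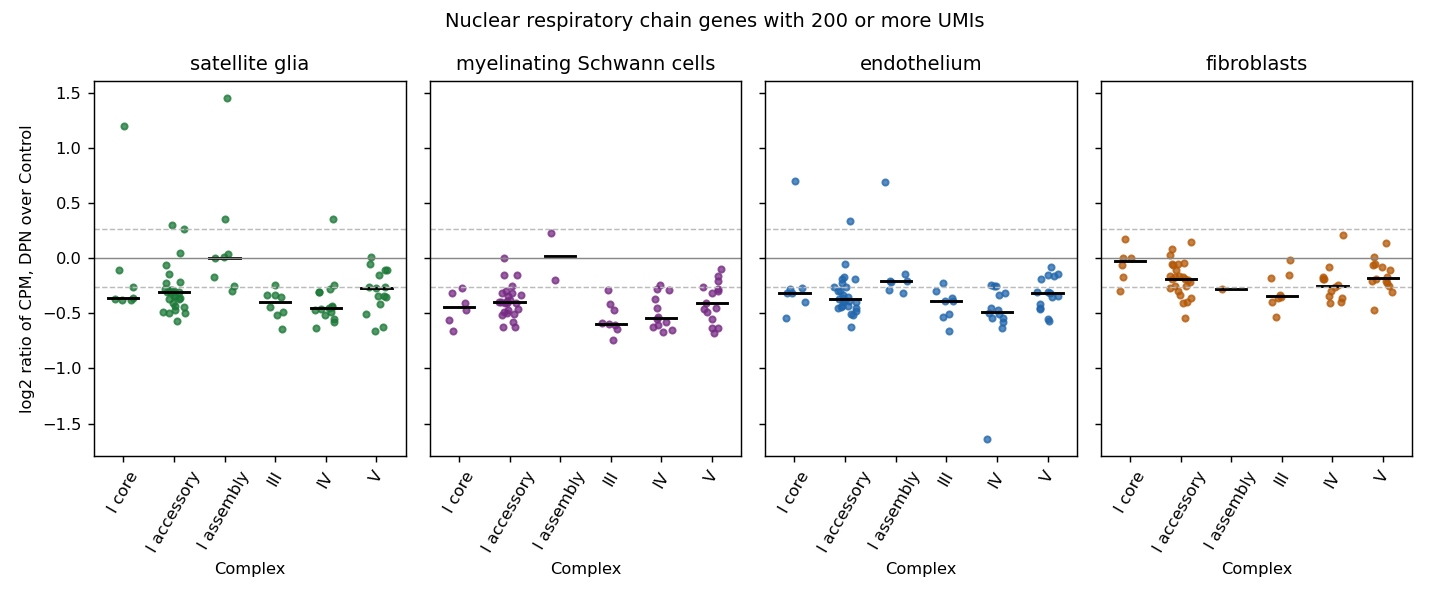
log2 ratio of CPM (DPN over Control library) of each nuclear gene with at least 200 UMIs, by complex, in 4 cell types. Points are genes, black bars group medians, and dashed lines the fold of 1.2. Complex III and IV have the lowest medians, save in fibroblasts, where the 1 assembly factor that passed (-0.28) lies below complex IV (-0.25). Over all nuclear members fibroblasts lie closest to 0 (median -0.19).

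Complex I takes electrons from NADH through the flavoprotein NDUFV1 and a chain of iron-sulphur clusters to ubiquinone. Its nuclear core and accessory subunits together had ratios of 0.793 in satellite glia, 0.753 in myelinating cells, 0.782 in endothelium and 0.874 in fibroblasts. Ndufv2, an iron-sulphur core subunit, was at 263 and 202 CPM in satellite glia, 282 and 191 in myelinating cells, 130.5 and 89.5 in endothelium, and 158 and 158 in fibroblasts. It was lower in 3 types (ratios 0.771, 0.678 and 0.686), and its interval in fibroblasts was 0.851 to 1.18. Ndufs5, an accessory subunit, was at 163 and 109.8 CPM in satellite glia (0.674), 197 and 139.9 in myelinating cells (0.710), 187 and 122 in endothelium (0.653) and 195 and 159 in fibroblasts (0.814). Ndufc2, an accessory subunit, had the lowest ratio of any member in fibroblasts, at 328 and 226 CPM (0.688, 0.608 to 0.778).

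Ndufs1, the largest core subunit, went the other way. It was at 6.82 and 15.7 CPM in satellite glia (ratio 2.29, 2.02 to 2.61) and at 7.94 and 12.9 CPM in endothelium (1.62, 1.24 to 2.13). It did not reach 200 UMIs in myelinating cells (11 and 19.2 CPM) or fibroblasts (9.86 and 19.9 CPM), where the DPN value was also the higher. Ndufa10, an accessory subunit, was at 25.6 and 31.6 CPM in satellite glia (1.23, 1.14 to 1.33) and at 28.1 and 35.6 CPM in endothelium (1.27, 1.09 to 1.47), and had 0.904 (0.690 to 1.18) in myelinating cells. Ndufs3, a core subunit, was at 134 and 84.5 CPM in myelinating cells (0.631, 0.533 to 0.746), and Ndufb2, an accessory subunit, at 347 and 226 CPM there (0.653, 0.589 to 0.723). In fibroblasts the accessory Ndufa12 had 1.11 (0.909 to 1.35) and was not called, while it was lower in the other types. Ndufb6 stood 1.37-fold or more above the mean level of the other 3 types in satellite glia of either library, Ndufb2 1.53-fold or more in myelinating cells, and Ndufa3 1.43-fold or more in fibroblasts.

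The assembly factors, which build complex I and leave it, differed among themselves. Their sum had ratios of 0.915, 1.04, 0.933 and 0.978 in satellite glia, myelinating cells, endothelium and fibroblasts, and the 8 passing in satellite glia ran from 0.810 to 2.74, with 1 lower and 2 higher. In endothelium 6 of the 7 that passed were under 1, with a median ratio of 0.865, 2 lower and 1 higher. Ndufaf1, a chaperone of the membrane arm, was at 2.10 and 5.75 CPM in satellite glia (2.74, 2.19 to 3.43), the highest ratio of any nuclear member there. In the other types it did not pass, with 7 and 23 UMIs in myelinating cells, 19 and 48 in endothelium, and 8 and 28 in fibroblasts, and in neurons its ratio was 3.70 (2.72 to 5.13). Ndufaf4 was at 5 and 6.38 CPM in satellite glia (1.28, 1.07 to 1.52) and at 13.1 and 21.1 CPM in endothelium (1.61, 1.31 to 1.99), and the endothelial ratio was 1.08 in cells of 3000 to 12000 UMIs, where that of Ndufs1 was 1.21 and no member was called higher. Ndufaf2 was at 50.4 and 59.3 CPM in myelinating cells (1.18, 0.931 to 1.49), the highest ratio there.

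Complex III, which passes electrons from ubiquinol to cytochrome c, had summed ratios of 0.738 in satellite glia, 0.677 (0.650 to 0.706) in myelinating cells and 0.817 in fibroblasts, the lowest of the complexes in each, and of 0.746 in endothelium, beside 0.743 for complex IV. Of its 8 nuclear members, all of which passed in each type, 7, 8, 7 and 5 were lower in satellite glia, myelinating cells, endothelium and fibroblasts. Uqcrq, a small subunit, was at 277 and 178 CPM in satellite glia (0.642, 0.624 to 0.660), 336 and 202 in myelinating cells (0.601, 0.540 to 0.668), 170.3 and 118 in endothelium (0.692) and 205 and 156 in fibroblasts (0.759). It had the lowest ratio of any member in myelinating cells. Uqcr10, another small subunit, was at 143 and 90.4 CPM in endothelium (0.633, 0.586 to 0.682). In myelinating cells Uqcr11 (0.654), Uqcrb (0.663) and the core protein Uqcrc2 (118 and 77.4 CPM, 0.659) were also past 1.5-fold. The core protein Uqcrc1 was at 112 and 95.9 CPM in endothelium (0.855) and 76.9 and 76.0 in fibroblasts (0.989, 0.780 to 1.26).

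Complex IV, cytochrome c oxidase, hands electrons to oxygen, and its nuclear sum had ratios of 0.747, 0.719, 0.743 and 0.835 in satellite glia, myelinating cells, endothelium and fibroblasts. Of the 15, 12, 14 and 12 members that passed, 13, 11, 11 and 6 were lower. Cox8a was at 683 and 500.4 CPM in satellite glia (0.733), 815 and 511 in myelinating cells (0.626), 561 and 385 in endothelium (0.687) and 806 and 627 in fibroblasts (0.778). Cox6c was at 525 and 358 CPM in satellite glia (0.683), 587 and 383 in myelinating cells (0.652), 489 and 343 in endothelium (0.702) and 671 and 506 in fibroblasts (0.755). Cox4i1, the usual form of subunit IV, moved less, with 770.5 and 635 CPM in satellite glia (0.825) and 844 and 712 in endothelium (0.844). Cox6b1 was at 168 and 109 CPM in satellite glia (0.645), and Cox5a had 1.16 (0.959 to 1.40) in fibroblasts, the highest ratio of a nuclear member there and not called. Cox7a2l2 was at 424 and 273 CPM in endothelium (0.645, 0.617 to 0.674), and Cox6a1 at 417 and 337 CPM in satellite glia (0.808), with no call for it in the other 3 types and a lower level in smooth muscle (0.814, 0.751 to 0.882).

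Complex V had ratios of 0.812, 0.759, 0.804 and 0.890 in the same order of types, and its members divided. Atp5f1e, the epsilon subunit of the central stalk, was at 457 and 296 CPM in satellite glia (0.649), 632 and 394 in myelinating cells (0.623), 409 and 279 in endothelium (0.684) and 437 and 315 in fibroblasts (0.720). Atp5md, a small subunit of the membrane part, was at 41.6 and 26.3 CPM in satellite glia (0.632, 0.587 to 0.680), the lowest ratio there. The subunits of the catalytic head stayed closer to 1. Atp5f1b was at 292 and 282 CPM in satellite glia (0.969), 464 and 415 in myelinating cells (0.896), 351 and 316 in endothelium (0.903) and 364 and 367 in fibroblasts (1.01), and Atp5f1a had 1.01, 0.863, 0.906 and 0.965. Atp5if1, the inhibitor of the enzyme's ATP hydrolysis, had 0.926 in satellite glia, 0.936 in myelinating cells, 0.803 in endothelium and 1.10 in fibroblasts, and of the 4 types it was called lower in endothelium alone. Its level was highest in neurons, at 1567 and 1305 CPM. Atp5pd, of the peripheral stalk, was at 479.7 and 310.0 CPM in myelinating cells (0.646). Of the subunit c genes, which encode the same mature protein, Atp5mc1 was lower in myelinating cells (0.734) and endothelium (0.804), Atp5mc2 in satellite glia (0.831) and myelinating cells (0.799), and Atp5mc3 in none, with ratios of 0.836 to 0.948.

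Members with cell type-specific forms were set side by side over 8 gates. Cox4i2, the form of subunit IV known from lung and from hypoxia, was at 722 and 721 CPM in pericytes and 674 and 656 in smooth muscle. It was at 86.5 and 63.8 CPM in satellite glia (0.737, 0.703 to 0.774), 90.7 and 64.1 in endothelium (0.707, 0.644 to 0.775), 10.2 and 15.6 in myelinating cells, 12.5 and 12.6 in fibroblasts, and 1.59 and 1.81 in neurons. The level in pericytes and smooth muscle was the highest in both libraries, and the levels of myelinating cells and fibroblasts overlapped in their counting intervals. Ndufa4l2, a relative of Ndufa4 that is induced by hypoxia, was likewise highest in pericytes (1119 and 822 CPM) and smooth muscle (863 and 553 CPM).

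In endothelium, Ndufa4l2 was at 125 CPM (119 to 132) in Control and 40.4 CPM (37.1 to 43.8) in DPN cells, a ratio of 0.322 (0.291 to 0.356), the lowest of any member in any of the 4 types. It was found in 24.5% and 13.5% of endothelial cells, against 1.61% and 1.95% of the more deeply sampled satellite glia. The summed level of 4 pericyte and smooth muscle markers in the endothelial gate was 174 and 108 CPM, lower in the DPN library too. Without cells in more than 1 of the 8 gates the ratio was 0.317, and within pericytes and smooth muscle it was 0.734 (0.689 to 0.782) and 0.641 (0.589 to 0.698). Ndufa4 itself was at 517 and 379 CPM in endothelium (0.732), and was lowest in pericytes, at 227 and 186 CPM.

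**Figure D3:**
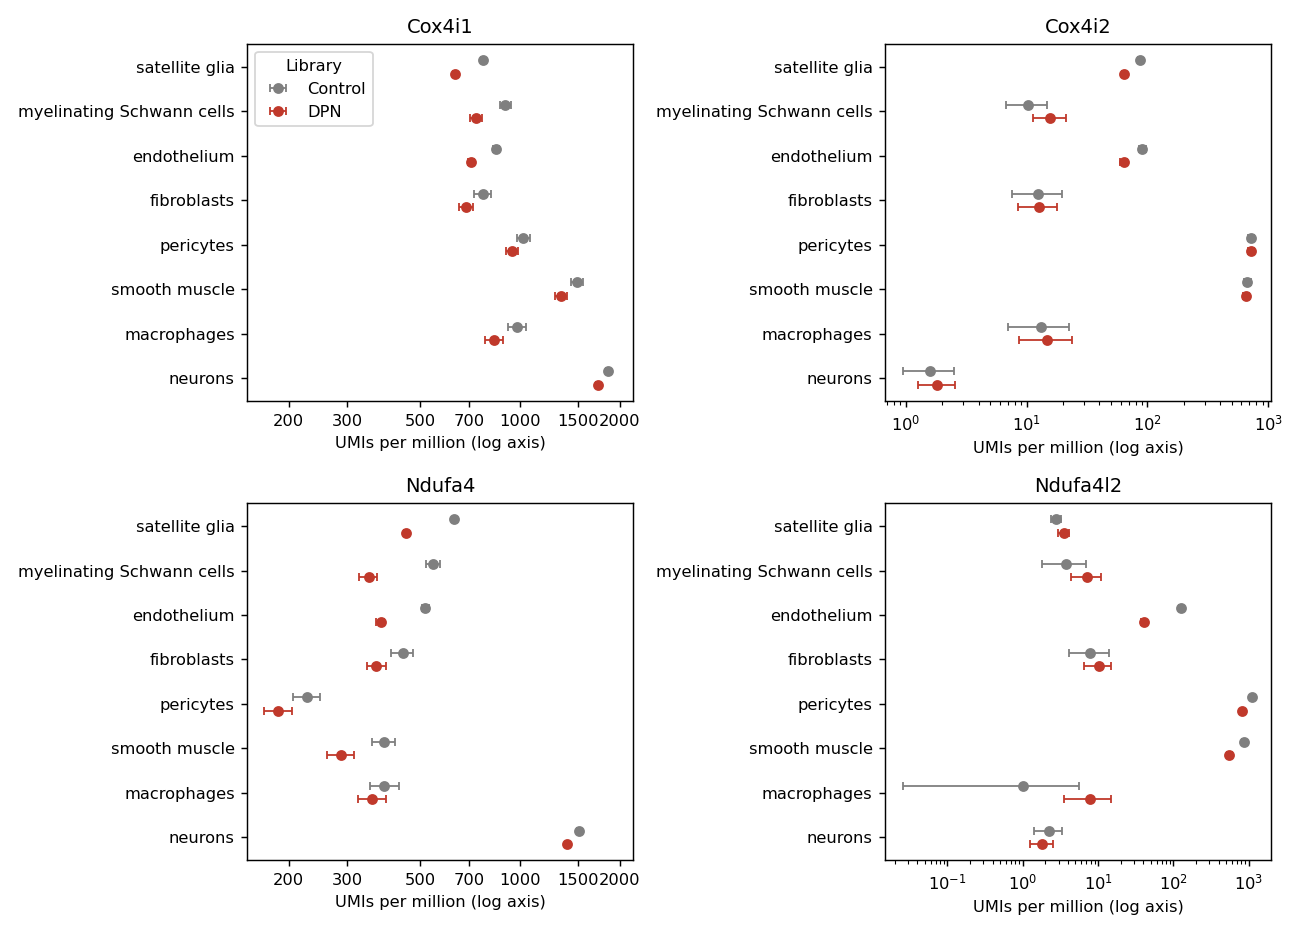
Levels of Cox4i1, Cox4i2, Ndufa4 and Ndufa4l2 (CPM, log axis) in 8 gated types of the Control (grey) and DPN (red) libraries, with exact Poisson 95% intervals. Cox4i2 and Ndufa4l2 are highest in pericytes and smooth muscle, and Ndufa4l2 falls from 125 to 40.4 in endothelium.

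Some nuclear members could not be followed. Of the 90, 10 passed the minimum in none of the 4 types: Atp5pb, Cox6a2, Cox6c-ps1, Cox7a1, Cox7b2, Cox8b, Cox8c, Ndufa1, Ndufa10l1 and Ndufs6. Cox6c-ps1, Cox7a1, Ndufa1 and Ndufa10l1 had 0 UMIs in both libraries. Ndufs6 and Atp5pb, subunits that cells with a respiratory chain are known to use, were almost unseen, Ndufs6 with 30 Control and 18 DPN UMIs and Atp5pb with 18 and 13, so that their counts cannot be read as their level. Why they were so low was not tested. Cox7a2 had no symbol of its own in the counts. Cox7a2l2 had a RefSeq span of only 459 bases, and whether its UMIs come from another gene was not tested. Cell Ranger leaves out reads that map equally well to several genes, so that values of members with near-identical copies elsewhere in the genome are uncertain.

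The 13 Mt- genes did not move together. In satellite glia the 13 ratios ran from 1.05 to 2.61, in myelinating cells from 1.02 to 2.91, in endothelium from 0.938 to 2.53 and in fibroblasts from 1.13 to 2.47. The calls were 5, 5, 5 and 9 higher and 0 lower in any type, where 40.6%, 29.3%, 32.1% and 35.2% of all genes were higher. The same 5 genes, Mt-nd3, Mt-nd4l, Mt-nd5, Mt-nd6 and Mt-atp8, were higher in all 4 types, and they were the least abundant Mt- genes. How many of all genes were higher in all 4 types was not counted, so this recurrence cannot be called particular to them.

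Mt-nd6, the complex I subunit that is read from the other strand of mitochondrial DNA than the rest, stood furthest from 1. It was at 47.0 and 123 CPM in satellite glia (2.61, 2.49 to 2.73), 37.2 and 108 in myelinating cells (2.91, 2.31 to 3.69), 38.6 and 97.8 in endothelium (2.53, 2.26 to 2.83) and 34.8 and 86.2 in fibroblasts (2.47, 1.82 to 3.41). Over the 4 types it ran from 34.8 to 47.0 CPM in the Control and from 86.2 to 123 CPM in the DPN library. These types come from the same pair of libraries and are not replicates. At the fold of 1.5, 22.6%, 15.3%, 16.7% and 22.5% of all genes were higher in the same order of types. In pericytes, smooth muscle and neurons the ratio of Mt-nd6 was 2.35, 2.64 and 3.65. Mt-nd5, which has the longest Mt- reading frame, was at 1775 and 2624 CPM in satellite glia (1.48), 1304 and 2043 in myelinating cells (1.57), 743 and 984 in endothelium (1.32) and 596 and 916 in fibroblasts (1.54).

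Mt-atp8 was at 106 and 189 CPM in satellite glia (1.78), 99.7 and 217 in myelinating cells (2.18), 89.6 and 147 in endothelium (1.64) and 47.3 and 85.0 in fibroblasts (1.80). It shares its transcript with Mt-atp6, and Mt-nd4l shares that of Mt-nd4, so that the reads of each pair cannot be cleanly told apart. Mt-atp6 had ratios of 1.14, 1.10, 0.979 and 1.23, and Mt-nd4 of 1.2, 1.09, 1.04 and 1.25, closer to 1 than their partners. The abundant messages of complex IV, Mt-co1, Mt-co2 and Mt-co3, had ratios of 1.06, 1.05 and 1.17 in satellite glia and of 1.11, 1.05 and 1.02 in endothelium. Mt-cyb, the mitochondrial subunit of complex III, was at 15478 and 16840.0 CPM in satellite glia (1.09) and at 8497 and 8056 CPM in endothelium (0.948, 0.940 to 0.956).

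**Figure D4:**
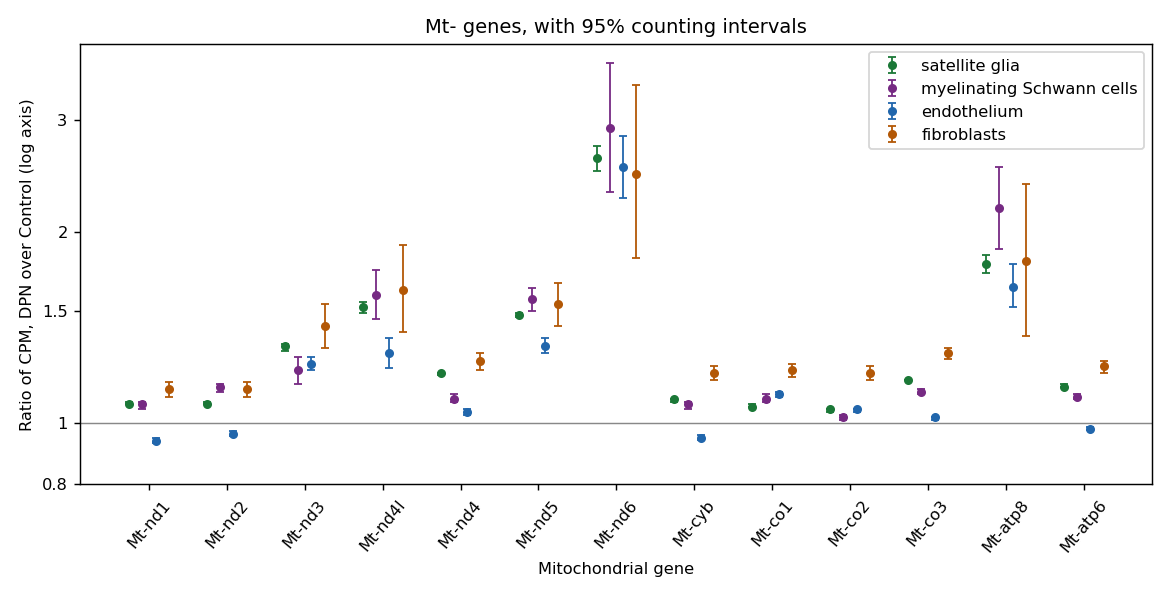
Ratio of CPM (DPN over Control library, log axis) of the 13 Mt- genes in 4 cell types, with exact 95% counting intervals. Mt-nd6 lies between 2.47 and 2.91 and Mt-atp8 between 1.64 and 2.18, while Mt-co1, Mt-co2 and Mt-cyb lie between 0.948 and 1.21.

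The Mt- share also differed between cells. Its median over cells was 14.3% and 16.0% in satellite glia, 13.4% and 14.5% in myelinating cells, 8.51% and 8.47% in endothelium, and 4.67% and 5.42% in fibroblasts. Cells with at least 20% Mt- UMIs made up 7.76% (7 to 8.58) and 14.7% (13.6 to 15.9) of satellite glia, 11.9% (8.90 to 15.5) and 15.8% (12.9 to 19.0) of myelinating cells, 3.37% and 4.49% of endothelium, and 1.40% and 2.67% of fibroblasts. In the median cell, nuclear respiratory UMIs per 1000000 non-mitochondrial UMIs were 20988 and 17024 in satellite glia, 23299 and 18603 in myelinating cells, 18868 and 14557 in endothelium, and 16425 and 13845 in fibroblasts. The middle 50% of DPN satellite glia ran from 15121 to 18941 and that of Control cells from 18927 to 23021.

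The lower nuclear level was seen at like Mt- shares. Among satellite glia with 10% to 20% Mt- UMIs, 3919 Control and 2885 DPN cells, nuclear UMIs per 1000000 non-mitochondrial UMIs were 21279.8 and 17141 (ratio 0.806), and among myelinating cells of that range 24892 and 18845 (0.757). Among endothelial cells with 5% to 10% they were 18127 and 13814 (0.762), and among fibroblasts of under 5% 15968 and 13253 (0.830). Ratios above 0.890 stood in the sparse or outer classes, satellite glia of at least 20% (0.924), endothelium of at least 20% (1.03, with 28 and 57 cells), satellite glia under 5% (1.04, with 26 and 22 cells) and fibroblasts of at least 20% (1.57, with 3 and 9 cells).

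**Figure D5:**
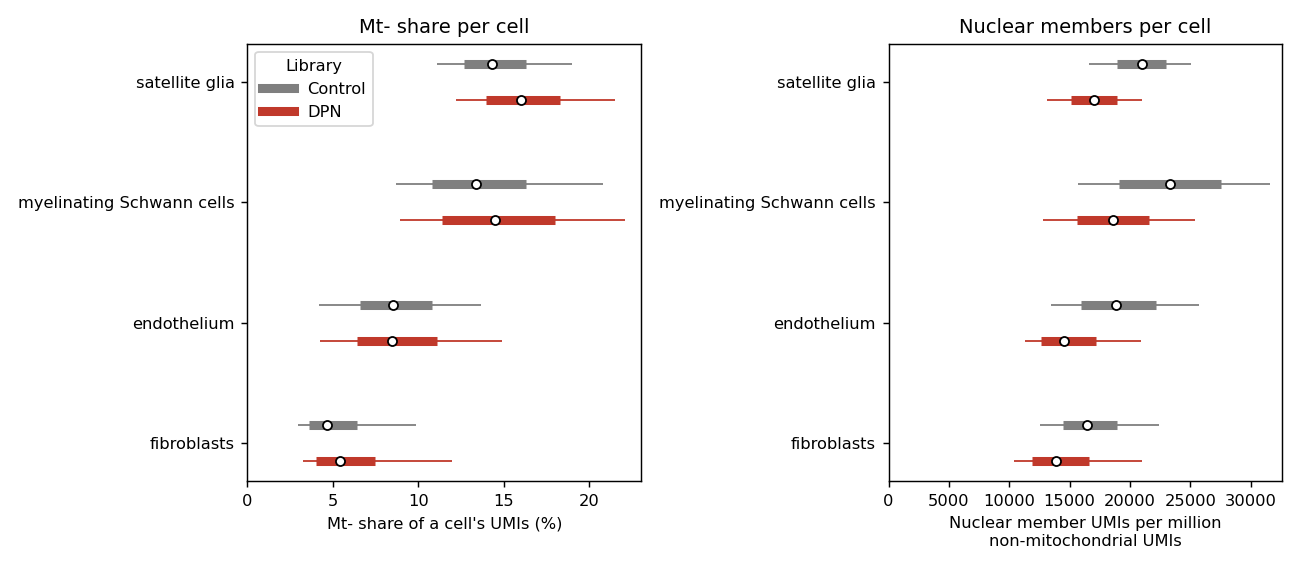
Mt- share of a cell's UMIs (left, %) and nuclear respiratory UMIs per 1000000 non-mitochondrial UMIs (right), per cell, in 4 types of the Control (grey) and DPN (red) libraries. Circles are medians, thick bars the middle 50% and thin lines the middle 80% of cells. The median of DPN satellite glia is 16.0% on the left and 17024 on the right.

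Genes around the chain gave a comparison. Of complex II, which passes electrons from succinate to ubiquinone, Sdha, Sdhb, Sdhc and Sdhd passed in each type. Sdhb (0.833) and Sdhd (0.780) were lower in myelinating cells and Sdhc (0.808) and Sdhd (0.806) in endothelium, and 0 of the 4 were called in satellite glia and fibroblasts. Cytochrome c (Cycs) did not reach the minimum. Cyc1, the cytochrome c1 subunit of complex III that the symbol rule does not take, was at 85.0 and 63.5 CPM in satellite glia (0.746), 103 and 73.5 in myelinating cells (0.713) and 82.8 and 65.3 in endothelium (0.788). In fibroblasts Cyc1 was at 73.0 and 76.0 CPM (1.04, 0.819 to 1.33) and was not called. Sdha, the flavoprotein of complex II, had 0.973 in satellite glia, 0.958 in myelinating cells, 0.882 in endothelium and 1.28 (0.968 to 1.70) in fibroblasts. The median log2 ratio of the mitochondrial ribosome, which translates the Mt- messages, was -0.20, -0.32, -0.32 and -0.17 with 72, 42, 67 and 27 genes passing. That of the cytosolic ribosome was -0.26, -0.34, -0.21 and -0.28. Of its passing genes 50.7%, 73.1%, 30.4% and 54.5% were called lower, against 66.2%, 83.8%, 70.5% and 31.8% of nuclear members. Over all genes tested the shares were 15.8%, 28.3%, 20.8% and 17.7%. The ribosomal share was also the larger in neurons (43.5% against 31.2%), macrophages (49.2% against 31.2%) and pericytes (49.3% against 42.4%). In smooth muscle it was the smaller (21.5% against 59.7%). Lower levels were thus not particular to the respiratory genes.

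Glycolysis, the other source of ATP, had median log2 ratios of -0.15, -0.32, -0.18 and 0.15, where 16, 11, 15 and 10 genes passed, 5, 6, 6 and 0 were lower and 3, 0, 2 and 4 higher. Of all genes tested 15.8%, 28.3%, 20.8% and 17.7% were lower and 40.6%, 29.3%, 32.1% and 35.2% higher in these types. The 40% of glycolysis genes higher in fibroblasts was thus near the share of all genes. Ldha, which turns pyruvate to lactate, was at 354 and 294 CPM in satellite glia (0.830) and at 158 and 246 CPM in fibroblasts (1.56, 1.34 to 1.81). Of 10 listed regulators of nuclear respiratory genes, 7 passed in satellite glia, with a median log2 ratio of 0.01, 2 higher and 0 lower, and 7 in endothelium, with 0.31, 4 higher and 1 lower. The median of all genes tested was 0.14 in satellite glia and 0.05 in endothelium. Higher were 28.6% of the passing regulators in satellite glia and 57.1% in endothelium, against 40.6% and 32.1% of all genes. Gabpa was higher in both (1.47 and 1.27), Nrf1 was not called (1.12 and 1.24), and Esrra, an orphan nuclear receptor, was lower in endothelium (0.715, 0.585 to 0.875). Yy1 had the highest ratio in both and was the only one to pass in myelinating cells and fibroblasts. It was at 41.1 and 91.7 CPM in satellite glia (2.23), 57.6 and 106 in myelinating cells (1.84), 101 and 239.8 in endothelium (2.37) and 63.1 and 131 in fibroblasts (2.08), higher in each. Tfam, which packages and transcribes mitochondrial DNA, had 1.14 in satellite glia and 0.892 in endothelium, with no call. Levels of RNA were measured here, not of protein or respiration.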

How the data were processed

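Droplet libraries of rat DRG cells, 1 per condition, were analysed. The authors deposited raw UMI counts for each gene and barcode, produced by Cell Ranger 3.1.0 with the STAR aligner. For the STAR version and the genome build, not given in the sources used here, nothing was assumed. The methods name down-sampling of reads but do not say if these libraries had it. Reads that map to several genes are not counted by Cell Ranger, and a 3′ assay can also capture unspliced and internally primed molecules, both of which can change the counts of a gene.

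Members and gene lists were chosen with earlier results of these data known, and comparisons by level and gene span came after the data had been seen. Counts of identifiers sharing a symbol (147 symbols) were added, and UMIs were summed per gene, gate and library and divided by the summed UMIs of the gated cells. Cells needed 1000 UMIs. Comparison gates used Rgs5, Kcnj8 and Abcc9 (pericytes, 10 per 10000), Myh11 and Acta2 (smooth muscle, 30), C1qa, C1qb and Csf1r (macrophages, 10), and Nefl, Nefm, Snap25 and Scn9a (neurons, 20). No doublet caller was run, and cells in several gates were left out in an alternative. Levels carry exact Poisson intervals, shares Clopper-Pearson intervals and ratios exact conditional binomial intervals at 95%. Named genes were the Mt- genes, known isoform pairs, subunit c genes and Atp5if1, nuclear members past 1.5-fold and, per type, the 3 lowest and 3 highest ratios and the 3 highest levels over the other types. Other members named, such as Uqcrc1, Atp5f1a and Atp5f1b, were chosen after their values were seen. A gene that this rule names is not reported here. Other settings were a 20% Mt- limit, totals without mitochondrial counts, doubled gates, gates on non-mitochondrial UMIs, no cells in several gates, cells of 3000 to 12000 UMIs, equal weight per cell, median-ratio scaling and a minimum of 20 UMIs. The call rule was run on simulated counts with 200 genes per type changed to a fold of 2 or 0.5. That simulation held counting error alone, so it says nothing of differences between libraries or animals. Python 3.11.15, numpy 2.4.6, scipy 1.17.1, pandas 2.3.3 and matplotlib 3.10.9 were used.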

Additional observations from a re-analysis of the deposited data

Results flagged for a closer look

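Among the 4 types, Ndufa4l2 passed the minimum in satellite glia and endothelium and was called in opposite directions in them. Its ratio was 1.28 in satellite glia (2.74 and 3.49 CPM in the Control and DPN libraries) and 0.322 in endothelium (125 and 40.4 CPM). The level in satellite glia was thus very low. Median-ratio scaling divides ratios there by 1.10, and Ndufa4l2 was then no longer called higher, so the opposite calls depend on the scaling. The difference between the types was not tested, since each condition is 1 library. In the comparison gates it was lower in pericytes (0.734) and smooth muscle (0.641).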

How the results depend on the processing

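The nuclear sum ratio was under 1 in all 36 values over types and settings, and 301 of 304 alternative ratios of named genes lay on the same side of 1 as the main value. In satellite glia the nuclear sum ratio was 0.782 under the 20% Mt- limit, 0.809 without mitochondrial counts in the totals, 0.776 with doubled gates, 0.803 in cells of 3000 to 12000 UMIs, 0.783 with equal weight per cell and 0.706 under median-ratio scaling, and the Mt- ratio was 1.09, 1.16, 1.12, 1.06, 1.11 and 1.01 in that order, and 1.12 without cells in several gates. In myelinating cells the nuclear ratio was 0.775 without mitochondrial counts, 0.770 with equal weight and 0.751 under median-ratio scaling, and the Mt- ratio 1.05 (20% limit), 1.15 (no mitochondrial counts), 1.16 (doubled gates), 1.11 (no cells in several gates), 1.11 (3000 to 12000 UMIs), 1.06 (equal weight) and 1.11 (median-ratio). In endothelium the nuclear ratio was 0.781 without cells in several gates, 0.744 in cells of 3000 to 12000 UMIs, 0.796 with equal weight and 0.748 under median-ratio scaling. Its Mt- ratio was 1.01 under the 20% limit, 1.02 with gates on non-mitochondrial UMIs, without cells in several gates and in the band of UMIs, 1.03 with equal weight, and turned to 0.984 under median-ratio scaling. In fibroblasts the nuclear ratio was 0.877 without mitochondrial counts, 0.878 with doubled gates, 0.905 in the band, 0.879 with equal weight and 0.808 under median-ratio scaling, and the Mt- ratio 1.17 (20% limit), 1.24 (no mitochondrial counts), 1.14 (doubled gates), 1.25 (gates on non-mitochondrial UMIs), 1.24 (no cells in several gates), 1.30 (band), 1.18 (equal weight) and 1.14 (median-ratio). Members called higher in satellite glia were 3 with doubled gates and 2 under median-ratio scaling, in place of 5, and those in endothelium 0 in the band, in place of 3. Members called higher in myelinating cells were 1 with equal weight and 2 with a minimum of 20 UMIs, and in fibroblasts 1 with that minimum. Members called lower in fibroblasts were 11 in the band and 33 under median-ratio scaling, in place of 21. The cause of these shifts was not tested. No paired analysis was possible because the libraries hold pooled rats.

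The pools differ in rats, preparation and depth, which cannot be told apart from the condition, and no value carries an error between animals. Of the 4 types, fibroblasts and myelinating cells hold the fewest UMIs and the fewest members that reach 200 UMIs (66 and 68).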
